A study of Mus musculus with 24 samples.

Results

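The genes described here are 34 members of the sterol and fatty acid synthesis pathway, chosen by name among the 23337 genes counted in a series on mouse bone-marrow-derived macrophages. Of these, 17 encode enzymes of sterol synthesis, 11 encode enzymes of fatty acid synthesis, elongation, desaturation and activation, and 6 encode regulators or a sterol carrier. Each gene was measured in KO cultures, labelled Apobec1 -/-, and in WT cultures, labelled wildtype, both of strain C57BL/6J. The labels number 12 cultures, 6 of each genotype, and assign each to a batch. Batch 3 held KO 5, KO 6, WT 5 and WT 6, batch 2 held KO 2, KO 3, KO 4 and WT 4, and batch 1 held KO 1, WT 1, WT 2 and WT 3. The labels do not say whether a batch marks a preparation of cells, of libraries or a sequencing run. Marrow came from mice aged 6 to 12 weeks, and the cells of both genotypes were matured over 7 days with M-CSF, a factor that macrophages need to develop, at 20 ng/mL and at 40 ng/mL in the medium added every 3 days. From each culture 1 library of total RNA and 1 library of ribosome footprints, the fragments that translating ribosomes shield from nuclease, were counted per gene. APOBEC1 is a cytidine deaminase that edits RNA, and the series asks how its loss bears on translation in these cells.

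Cholesterol is built from acetyl-CoA through mevalonate, squalene and lanosterol, and long fatty acids are built from malonyl-CoA and then lengthened and desaturated. The transcription factors SREBF1 and SREBF2 activate most genes of both branches. SCAP escorts them out of the endoplasmic reticulum when sterols are scarce, and INSIG proteins hold the complex back when sterols are plentiful. In macrophages these pathways supply membrane lipid, and they are known to respond to the load of cholesterol taken up and to activation of the cell.

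In total RNA, the counts that fell in genes ranged over the libraries from 5077478 to 12059361. Footprint libraries were shallower and unequal, from 29561 in WT 6, 90773 in KO 6, 218074 in WT 5 and 223504 in KO 5 up to 3714912 in WT 4. Levels are given as CPM, that is, counts relative to the library total after TMM scaling. A count of 3 equals 101 CPM in WT 6 footprints and 33.0 CPM in KO 6 footprints, so footprint values of batch 3 rest on few counts, and a footprint value of 0 there does not show absence. Apobec1 footprints were 0 to 24.9 CPM in KO cultures and 61.0 to 105 CPM in WT cultures, while Apobec1 total RNA was 605 to 1278 CPM in KO cultures and 313 to 475 CPM in WT cultures. Of the macrophage markers, 8 of 9 were counted, and their summed total RNA was 15306 to 25174 CPM in batch 3, 48784 CPM in WT 4, 27411 to 31854 CPM in the KO cultures of batch 2 and 21768 to 28969 CPM in batch 1. Of 14 neutrophil markers 12 passed the count filter, and their sum was 456 to 607 CPM in batch 3, 619 CPM in WT 4, 165 to 218 CPM in the KO cultures of batch 2 and 65.6 to 79.5 CPM in batch 1. The erythroid sum was at most 0.453 CPM, with Hba-a1 at 0, and the sum of adipocyte and stromal markers was at most 1.82 CPM, with Plin1 at 0. Counts of Y-linked genes summed to 1 to 2 in batch 3, 973 to 1563 in batch 2 and 2300 to 3572 in batch 1, and Xist had 172 to 386, 2 to 6 and 2 to 11 counts in batches 3, 2 and 1. The neutrophil sum therefore moved together with batch, and WT 4 stood apart from the other cultures of batch 2. The sex-linked transcripts set all cultures of batch 3 apart from those of batches 2 and 1, so this difference and batch 3 cannot be told apart. Their counts are not scaled for library depth, so the step in Y-linked counts between batches 2 and 1 is not read. The part of these differences in the values below was not tested.

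Total RNA of the sterol enzymes was higher in batch 3 than in batch 1 for 17 of 17 members, with a median log2 fold change of 2.56 and a range of 0.62 to 3.57 (edgeR quasi-likelihood test with genotype in the model, Benjamini-Hochberg adjusted p under 0.05). Over both branches and the regulators, 31 of 34 members were called higher and none lower, against 45.3% of all genes called in either direction, 23% higher, and an all-gene median near 0. In bulk RNA, more cells of a type and more RNA per cell cannot be told apart. The labels do not state that cultures came from separate animals, so p-values measure the spread between cultures.

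At the entry to the pathway, Acat2, which joins acetyl-CoA units, had 19.1, 23.3, 29.2 and 18.5 CPM in KO 5, KO 6, WT 5 and WT 6 of batch 3, against 3.57, 3.31, 3.46 and 3.58 CPM in KO 1, WT 1, WT 2 and WT 3 of batch 1. The lowest culture of batch 3 lay above the highest of batch 1, and the log2 fold change was 2.80 (SE 0.28). Hmgcs1, the synthase that makes HMG-CoA, had 170.4, 185, 206 and 182 CPM in the same cultures of batch 3, against 37.9, 44.4, 45.4 and 45.9 CPM in batch 1 (log2 fold change 2.20, SE 0.21). Again the groups did not overlap. Every batch 3 culture lay above every batch 1 culture in 17 of 17 sterol members and in 31 of 34 members, against 23.3% of all genes. Mvk, the kinase that phosphorylates mevalonate, had 28.1, 27.2, 34.9 and 27.1 CPM in batch 3, against 7.15, 7.21, 7.4 and 7.42 CPM in batch 1. The batch 1 cultures were nearly level with each other, WT 5 was the highest of batch 3, and the log2 fold change was 2.08 (SE 0.15, adjusted p 3.59e-07 by edgeR). Pmvk and Mvd, which carry out the next phosphorylation and the decarboxylation, were higher in batch 3 by log2 1.60 and 2.94.

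The 3 largest sterol changes were in Fdps, Idi1 and Sqle. Idi1, the isomerase of isopentenyl diphosphate, had 115, 126, 166 and 132 CPM in batch 3, against 12.4, 13.3, 16.2 and 15.5 CPM in batch 1 (fold 10.3, SE 0.29 on the log2 scale). Fdps, which makes farnesyl diphosphate, had 204, 214, 302 and 201 CPM in batch 3, against 21.7, 21.1, 21.5 and 21.1 CPM in batch 1, 11.8-fold higher (SE 0.42 on the log2 scale). In both genes WT 5 was the highest culture and the batch 1 cultures lay far below batch 3. Fdft1, squalene synthase, had 49.8, 51.3, 64.4 and 60.3 CPM in batch 3, against 7.01, 9.36, 6.93 and 9.12 CPM in batch 1. Sqle, squalene epoxidase, had 159, 165, 148 and 157 CPM in batch 3, against 15.1, 16.5, 20.5 and 17.8 CPM in batch 1 (fold 9.84, adjusted p 6.17e-06 by edgeR). For these 4 genes every batch 3 culture lay above every batch 1 culture, as was so in 23.3% of all genes.

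After lanosterol the change was uneven. Cyp51, the lanosterol demethylase, had 168, 169.7, 233 and 185 CPM in batch 3, against 23, 25.2, 29.5 and 24.7 CPM in batch 1 (log2 fold change 3.00, SE 0.23, adjusted p 1.21e-06 by edgeR). Hsd17b7, a ketoreductase of sterol demethylation, had 52.9, 50.6, 48.4 and 46.2 CPM in batch 3, against 6.49, 5.96, 6.93 and 6.05 CPM in batch 1 (log2 fold change 3.03, SE 0.22, adjusted p 6.02e-07 by edgeR). Both genes were far above batch 1 in every batch 3 culture. Lss, which closes the lanosterol ring, Sc4mol, the methyl oxidase that RefSeq names Msmo1, and Nsdhl, its partner dehydrogenase, were higher by log2 2.56, 1.91 and 1.64. The smallest sterol changes were in Tm7sf2, a sterol reductase, at log2 1.16 (SE 0.24), in Dhcr7, the reductase that yields cholesterol, at 1.03 (SE 0.24), and in Ebp, the sterol isomerase, at 0.62 (SE 0.10). Dhcr7 had 14.4, 20.8, 11.9 and 17.3 CPM in batch 3, against 8.6, 8.03, 7.4 and 8.87 CPM in batch 1. Its groups did not overlap, but WT 5 of batch 3 was close to batch 1. Ebp had 54.1, 44.5, 66.2 and 51.5 CPM in batch 3, against 34.7, 39.5, 35.4 and 35 CPM in batch 1, so even this smallest change left no overlap. Ebp and Nsdhl lie on the X chromosome, and Fdft1 and Tm7sf2 overlap Ctsb and Vps51, whose reads cannot be told apart from theirs where the strand of counting is not stated.

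**Figure D1:**
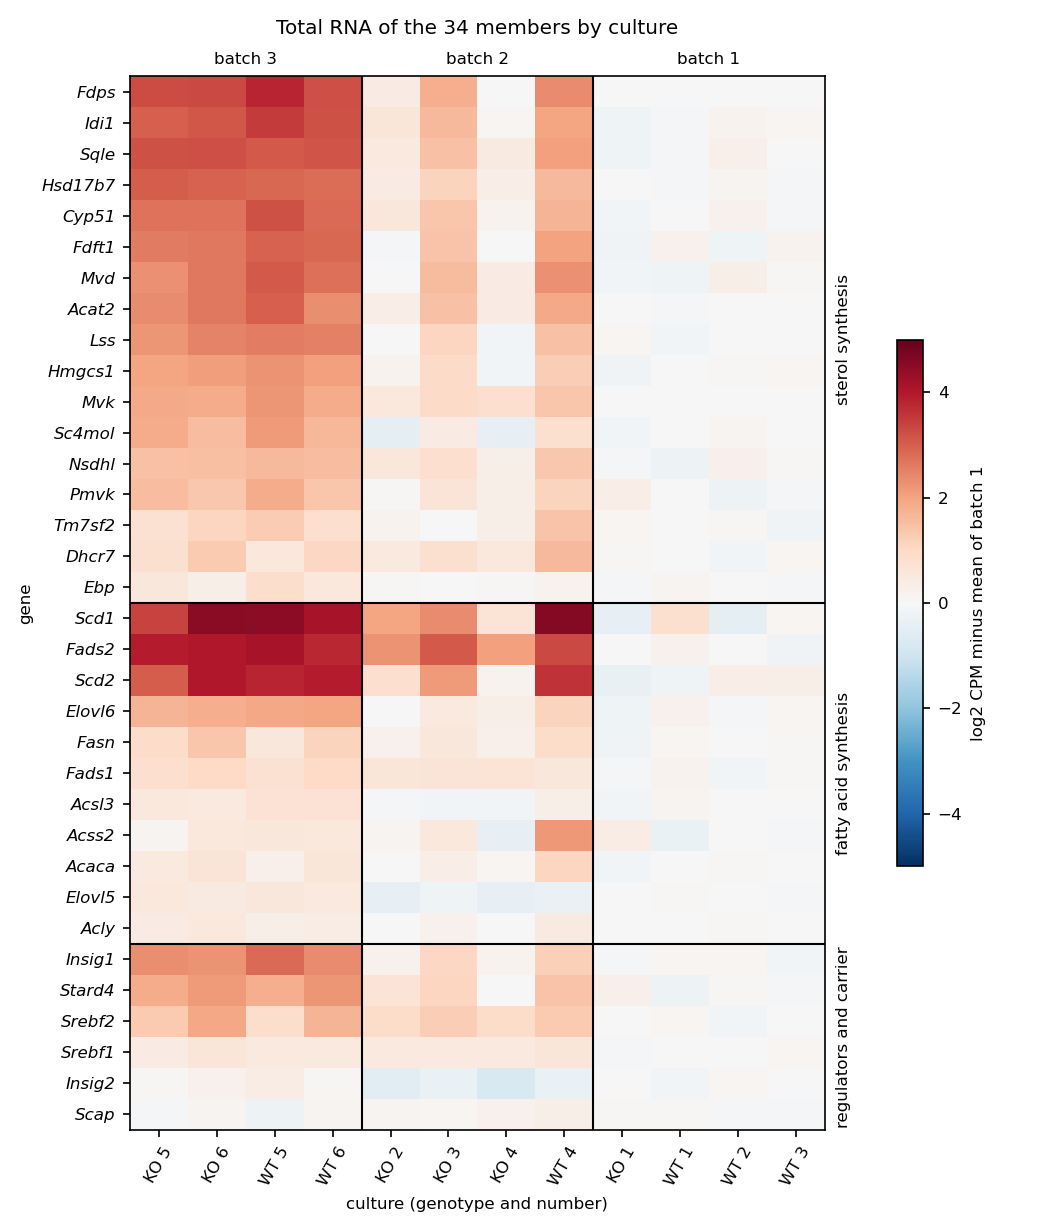
Log2 CPM of total RNA minus the batch 1 mean of the same gene, for the 34 members (rows, grouped by branch) in the 12 cultures (columns, grouped by batch, KO left of WT); red is higher and blue lower than batch 1. Batch 3 is red across the sterol rows in both genotypes, and in batch 2 the WT 4 column is the darkest, followed by KO 3.

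The windows below show the upstream sequence of sterol members and of fatty acid members that moved together. They are the RefSeq windows of build GRCm38.p6 around the gene start, and 27 of the 34 members have one. The genes are those with the smallest p in each branch in the batch 3 over batch 1 comparison, plus Hmgcs1, which was chosen after its values and sequence were seen. The windows, each of 300 bases, are Hmgcs1 at chr13:119690101-119690400 on the plus strand, Mvk at chr5:114444019-114444318 on the plus strand, Hsd17b7 at chr1:169969156-169969455 on the minus strand, Cyp51 at chr5:4104648-4104947 on the minus strand, Fads2 at chr19:10101454-10101753 on the minus strand and Acsl3 at chr1:78657575-78657874 on the plus strand. Capitals mark matches, on either strand, to TCACNCCAC (a form of the sterol regulatory element bound by SREBF proteins), CACGTG (an E-box), CCAAT (the box bound by NF-Y, a known partner of SREBF proteins) and GGGCGG (a GC box).
Hmgcs1: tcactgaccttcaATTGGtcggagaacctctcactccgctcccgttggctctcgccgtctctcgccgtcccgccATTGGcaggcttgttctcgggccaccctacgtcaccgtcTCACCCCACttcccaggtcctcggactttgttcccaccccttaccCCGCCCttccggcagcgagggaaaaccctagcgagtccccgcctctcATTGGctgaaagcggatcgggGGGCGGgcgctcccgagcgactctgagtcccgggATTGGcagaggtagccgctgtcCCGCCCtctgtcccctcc
Mvk: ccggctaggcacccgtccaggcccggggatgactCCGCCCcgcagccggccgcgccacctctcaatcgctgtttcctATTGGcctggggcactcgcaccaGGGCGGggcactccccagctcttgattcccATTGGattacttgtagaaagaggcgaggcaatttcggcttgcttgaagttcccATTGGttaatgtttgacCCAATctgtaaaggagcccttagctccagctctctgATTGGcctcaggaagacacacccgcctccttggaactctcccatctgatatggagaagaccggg
Hsd17b7: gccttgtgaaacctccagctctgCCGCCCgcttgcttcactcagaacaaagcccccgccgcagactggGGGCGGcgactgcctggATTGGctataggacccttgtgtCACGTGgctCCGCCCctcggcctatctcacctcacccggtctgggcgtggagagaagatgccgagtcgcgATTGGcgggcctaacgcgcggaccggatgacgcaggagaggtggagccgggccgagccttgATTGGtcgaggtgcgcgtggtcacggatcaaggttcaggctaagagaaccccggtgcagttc
Cyp51: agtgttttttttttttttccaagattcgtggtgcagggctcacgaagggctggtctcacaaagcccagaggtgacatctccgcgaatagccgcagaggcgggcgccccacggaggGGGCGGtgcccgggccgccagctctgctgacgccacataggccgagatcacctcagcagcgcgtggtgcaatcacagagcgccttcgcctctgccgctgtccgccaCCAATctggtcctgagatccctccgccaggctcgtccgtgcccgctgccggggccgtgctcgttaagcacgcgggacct
Fads2: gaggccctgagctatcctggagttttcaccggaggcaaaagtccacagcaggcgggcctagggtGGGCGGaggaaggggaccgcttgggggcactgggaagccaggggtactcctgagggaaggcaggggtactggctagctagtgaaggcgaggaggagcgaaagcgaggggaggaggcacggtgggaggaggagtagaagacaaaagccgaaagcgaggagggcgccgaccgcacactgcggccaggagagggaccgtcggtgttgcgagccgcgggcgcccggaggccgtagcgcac
Acsl3: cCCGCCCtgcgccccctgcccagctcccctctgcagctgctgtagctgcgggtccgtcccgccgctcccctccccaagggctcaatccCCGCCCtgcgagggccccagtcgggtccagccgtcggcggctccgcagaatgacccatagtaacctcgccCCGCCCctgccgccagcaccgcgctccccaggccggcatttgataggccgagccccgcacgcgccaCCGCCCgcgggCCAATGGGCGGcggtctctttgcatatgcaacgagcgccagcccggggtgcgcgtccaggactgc

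No pair of matches shared a base in these windows. The Hmgcs1 window was the sole member window with the letters TCACNCCAC, which 1.44% of 27025 genes with a window hold. Other forms of the sterol regulatory element were not searched. CCAAT letters were in 22 of 27 member genes, 13 of 14 sterol genes and 5 of 8 fatty acid genes, against 41.1% of all genes. GC box letters were likewise in 22 of 27 members, 13 of 14 sterol and 4 of 8 fatty acid genes, against 38.2% of all genes, and CACGTG was in 5 of 27, Hsd17b7 among them, against 8.09%. The Mvk window held 5 CCAAT matches and the Fads2 window held none. The window of Elovl6, which the same rule picks, held none of the 4 motifs and is not printed. A match is a run of letters and was not tested as a binding site.

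In the fatty acid branch, 10 of 11 members had higher total RNA in batch 3 than in batch 1, against 23% of all genes. The median log2 fold change was 0.89, with a range over the branch of 0.43 to 4.82. The 3 largest changes were in the desaturases Scd1, Fads2 and Scd2. Fads2, a desaturase of polyunsaturated fatty acids, had 31.9, 33.4, 36.3 and 28.7 CPM in KO 5, KO 6, WT 5 and WT 6, against 1.85, 2.15, 1.79 and 1.62 CPM in KO 1, WT 1, WT 2 and WT 3 (fold 18.5, log2 4.21, SE 0.26, adjusted p 1.19e-07 by edgeR). All 4 cultures of batch 3 were high and close to each other. Scd1, a stearoyl-CoA desaturase, had 10.6, 23.6, 22.8 and 17.7 CPM in batch 3, against 0.529, 1.57, 0.478 and 0.853 CPM in batch 1 (log2 4.82, SE 0.66). Scd2, its paralog, had 159.9, 317, 274 and 298 CPM in batch 3, against 14.7, 16.4, 24.4 and 23.8 CPM in batch 1 (log2 4.07, SE 0.59). For both Scd genes KO 5 was the lowest culture of batch 3 and still lay above batch 1. Reads that the Scd1 and Scd2 sequences share may have been split or lost in counting. Fads1, the partner desaturase of Fads2, had 165, 184, 158 and 184 CPM in batch 3, against 87.1, 106, 83.4 and 96.8 CPM in batch 1, a smaller step of log2 0.89 (SE 0.09).

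The enzymes that make and lengthen the chain moved by log2 0.43 to 2.00. Fasn, fatty acid synthase, had 143, 202, 114 and 164 CPM in batch 3, against 67.9, 80.9, 78 and 79.6 CPM in batch 1 (log2 1.06, SE 0.18). Acaca, which makes malonyl-CoA, and Acly, which makes cytosolic acetyl-CoA from citrate, were higher by log2 0.59 (SE 0.18) and 0.43 (SE 0.10). Elovl6, which elongates saturated chains, had 24.8, 26.8, 29.3 and 30.4 CPM in batch 3, against 6.35, 8.78, 6.93 and 8.01 CPM in batch 1 (log2 2.00, SE 0.16, adjusted p 7.5e-07 by edgeR). Its groups were far apart. Elovl5, an elongase of polyunsaturated chains, and Acsl3, which activates fatty acids with CoA, were higher by log2 0.53 and 0.69. Acss2, which makes acetyl-CoA from acetate, did not pass the test, with 8.33, 10.7, 11.3 and 11 CPM in batch 3, against 9.66, 5.8, 7.64 and 7.25 CPM in batch 1 (adjusted p 0.261 by edgeR). Acaca, Acsl3 and Acss2 overlap Tada2a, Utp14b and Acss2os, with the same limit on strand.

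Of the 6 regulators and carrier genes, 4 were higher in batch 3 than in batch 1, against 23% of all genes. Insig1, the INSIG protein whose gene is itself an SREBF target, had 287, 277, 417 and 302 CPM in batch 3, against 55.3, 61.6, 61.7 and 52.5 CPM in batch 1 (fold 5.86, log2 2.55, SE 0.19). Insig2, the other INSIG gene, had 45.4, 51.1, 56.8 and 46.2 CPM in batch 3, against 44.2, 40.3, 47.4 and 43.3 CPM in batch 1, and did not pass (adjusted p 0.133 by edgeR). Insig1 was thus apart between batches while the groups overlapped for Insig2. Srebf2, the factor best known for sterol genes, had 104, 161, 76.8 and 137 CPM in batch 3, against 42, 44.1, 37.9 and 42.3 CPM in batch 1 (log2 1.51, SE 0.19). WT 5 had the lowest Srebf2 of batch 3, although it had the highest Fdps, Idi1 and Insig1. Srebf1, the factor best known for fatty acid genes, was higher by log2 0.52 (SE 0.08), and its gene overlaps Rai1. Scap had 62.8, 72.4, 55.9 and 71.6 CPM in batch 3, against 69.1, 68.8, 61.7 and 64 CPM in batch 1, with overlapping groups and a log2 fold change of -0.01 (SE 0.10, adjusted p 0.931 by edgeR). Stard4, a sterol carrier, had 51.4, 63.2, 51.1 and 66.1 CPM in batch 3, against 16.8, 11.8, 14.9 and 13.6 CPM in batch 1 (log2 2.07, SE 0.23).

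**Figure D2:**
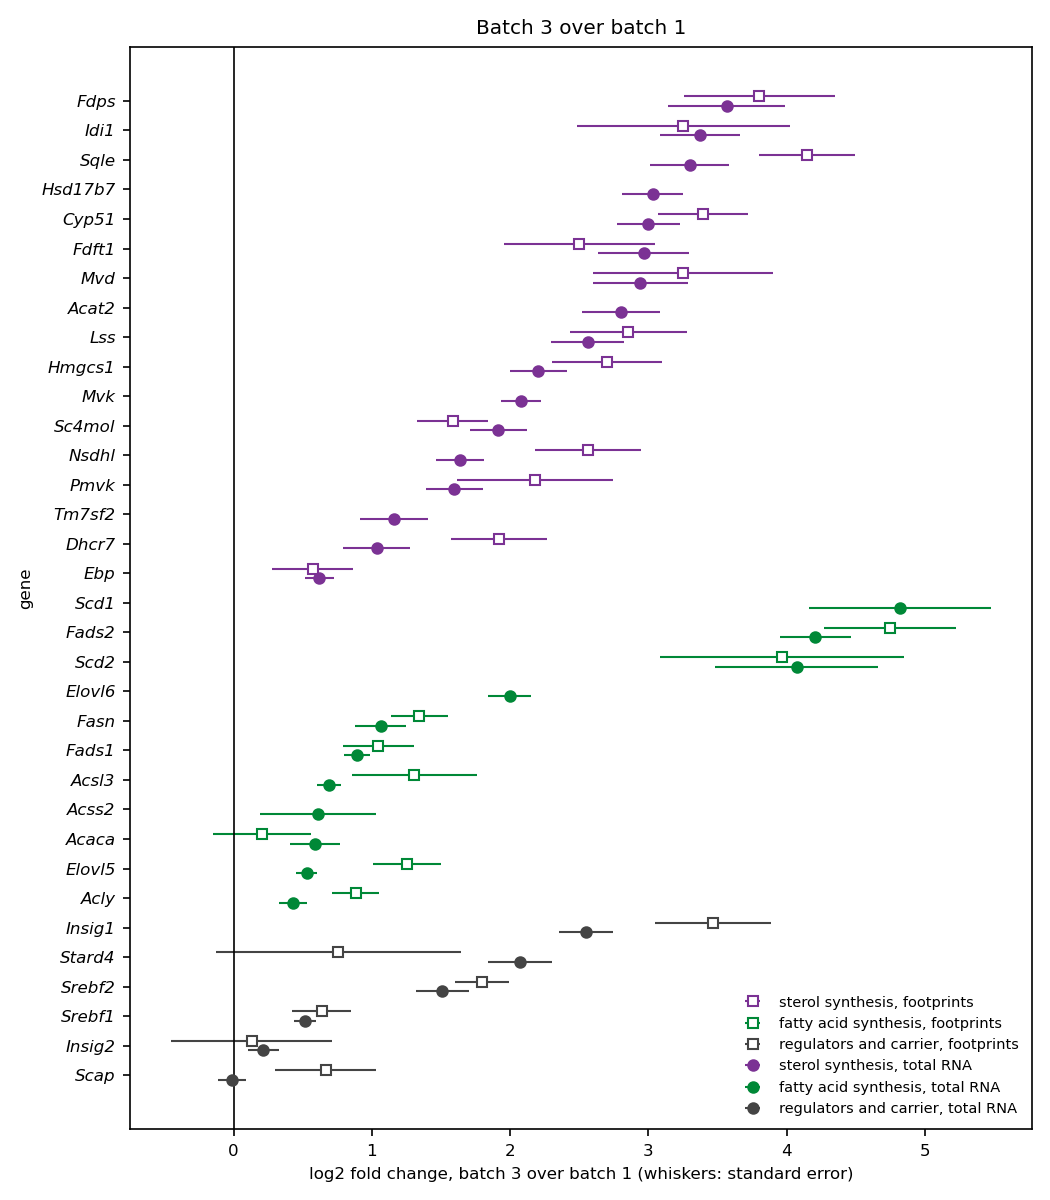
Log2 fold change of batch 3 over batch 1 with its standard error (whiskers) for each member, footprints as open squares and total RNA as filled circles. Fads2, Scd1 and Scd2 lie furthest right, while Scap and Insig2 lie nearest 0 in total RNA. The 7 members below the footprint count filter have no square.

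Other genes of the pathway were listed by name as related to sterol synthesis and uptake, to fatty acid synthesis or to SREBP processing. Of 13 sterol-related genes, 9 rose and 1 fell in batch 3 over batch 1 in total RNA, with a median log2 fold change of 1.13, against 23% of all genes higher and 22.3% lower. Sc5d, a sterol desaturase, was higher by log2 2.15, and Tmem97, a sterol-regulated membrane protein, by 1.62. Of 12 fatty acid-related genes tested, 7 rose and 2 fell (median 0.68), among them Elovl7, an elongase, at 1.53, Me1, which makes NADPH, at 1.00, and Lpin1, a phosphatidate phosphatase, at -0.94. Of 7 SREBP processing genes, 1 rose and 2 fell (median -0.09), a share near the 45.3% of all genes called, among them Erlin1 at 0.28 and Rnf145 at -1.05. In batch 2 over batch 1, 5 sterol-related genes rose and none fell, with Tmem97 at 0.76 and Sc5d at 0.66, 5 fatty acid-related genes rose and none fell, and of the SREBP processing genes none rose and 1 fell, against 12.7% of all genes higher and 10.8% lower. In KO over WT none of the 3 lists had a gene past the threshold.

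The branch levels of batch 2 lay between those of the other batches, and its cultures were unlike each other. In total RNA 26 members were higher and 2 lower in batch 2 than in batch 1, against 12.7% of all genes higher and 10.8% lower (23.5% called). The sterol count was 15 of 17 higher, with a median log2 fold change of 1.09, and Sc4mol and Ebp did not pass. In the fatty acid branch 7 of 11 rose and Elovl5 fell (-0.32), and among regulators 4 of 6 rose and Insig2 fell (-0.44). Without WT 4, the sole WT culture of batch 2, 10 members were called, against 12.2% of all genes, and the sterol median was 0.68. The members then higher were Cyp51 at log2 1.01, Mvk at 0.88, Nsdhl at 0.68, Sqle at 0.90, Fads1 at 0.66, Fads2 at 2.66, Scd1 at 2.19, Srebf1 at 0.49 and Srebf2 at 0.88, and Insig2 was lower at -0.52. This comparison shares its batch 1 cultures with the one above.

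The culture values show the spread. Cyp51 had 38.3, 66.4, 28.8 and 82.5 CPM in KO 2, KO 3, KO 4 and WT 4. Idi1 had 21.7, 44.1, 15.2 and 56.7 CPM in the same cultures, and Fdps had 28.8, 75.1, 21.1 and 111 CPM. For these 3 genes WT 4 was highest, KO 3 followed, KO 2 was next, and KO 4 was at the batch 1 level. The desaturase Scd2 had 34.7, 84.5, 21.9 and 240.2 CPM in KO 2, KO 3, KO 4 and WT 4, and Acss2 had 8.3, 11, 5.48 and 34.8 CPM. The Acss2 value of WT 4 was above that of every other culture of the series. Fads2 stood clear of batch 1 in each culture of batch 2, with 9.83, 17.2, 8.52 and 20.7 CPM in KO 2, KO 3, KO 4 and WT 4 (log2 fold change of batch 2 over batch 1 3.04, SE 0.28). Srebf2 was similar in this respect, with 79.4, 97, 79.1 and 102 CPM in KO 2, KO 3, KO 4 and WT 4 (log2 1.08, SE 0.20). So was Srebf1, with 100.2, 99.8, 101 and 108 CPM (log2 0.53, SE 0.08). Every batch 2 culture lay above every batch 1 culture in 13 of 34 members, against 16.9% of all genes. WT 4 was the highest culture of batch 2 for 32 of 34 members, against 33.4% of all genes, and KO 3 was the highest KO culture of batch 2 for 28 of 34, against 39.7%. WT 4 also had the highest neutrophil and macrophage marker sums of that batch, whose part in this was not tested.

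Between batch 3 and batch 2, which share cultures with the comparisons above, 25 members were higher in batch 3 and none lower, against 24.7% of all genes higher and 24.5% lower (49.2% called). These were 15 of 17 sterol members (median log2 1.39), 7 of 11 fatty acid members (0.57) and 3 of 6 regulators (0.54). Hsd17b7, whose batch 3 values stand above, had 8.44, 14.1, 8.12 and 20.0 CPM in KO 2, KO 3, KO 4 and WT 4 of batch 2 and was higher in batch 3 by log2 1.94 (SE 0.21). Insig1, likewise given above for batch 3, had 67.8, 119, 64.9 and 132 CPM in those batch 2 cultures and was higher in batch 3 by log2 1.66 (SE 0.19). Elovl5 had 157, 149.7, 163 and 154 CPM in KO 5, KO 6, WT 5 and WT 6 of batch 3, against 82.6, 94, 82.4 and 86.2 CPM in KO 2, KO 3, KO 4 and WT 4 of batch 2 (log2 0.84, SE 0.08, adjusted p 2.39e-06 by edgeR). Its batches did not overlap. Every batch 3 culture lay above every batch 2 culture in 22 of 34 members, against 20.7% of all genes. Insig2, which fell in batch 2, was higher in batch 3 by log2 0.66 (SE 0.12).

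The mean log2 CPM over the 17 sterol members was 5.92 ± 0.14 in batch 3, 4.48 ± 0.65 in batch 2 and 3.72 ± 0.04 in batch 1 (SD over cultures, n = 4 each). The fatty acid mean over 11 members was 6.03 ± 0.14, 5.22 ± 0.58 and 4.39 ± 0.09 in batches 3, 2 and 1. The spread of batch 2 was thus several times that of batch 1 in both branches. Within a culture, the sterol mean minus the fatty acid mean was -0.11 ± 0.16 in batch 3, -0.74 ± 0.15 in batch 2 and -0.67 ± 0.10 in batch 1, so the sterol branch stood closer to the fatty acid branch in batch 3. The neutrophil marker sum was also highest in batch 3 and WT 4 and lowest in batch 1, and its part in the branch levels was not tested.

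**Figure D3:**
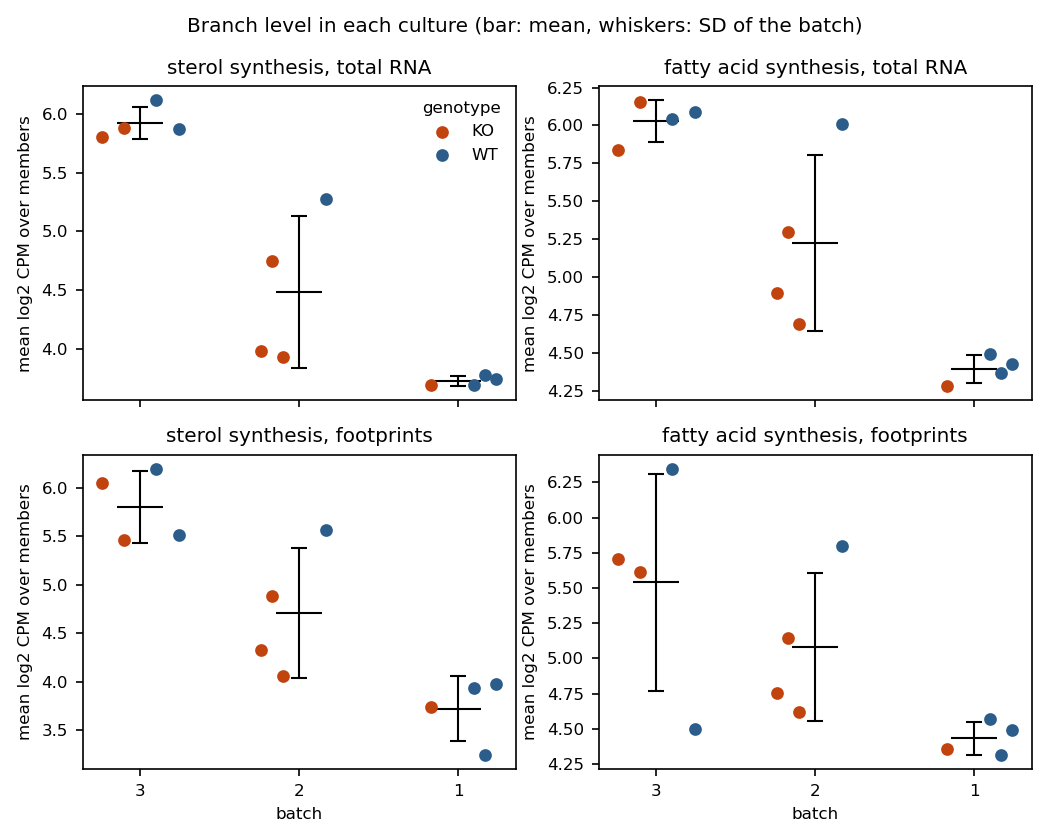
Mean log2 CPM over the members of a branch in each culture, by batch, KO left of WT, for total RNA (upper panels) and footprints (lower panels); the bar is the batch mean and the whiskers its SD (n = 4 cultures). Sterol total RNA averaged 5.92 in batch 3, 4.48 in batch 2 and 3.72 in batch 1. WT 4 lies above the 3 KO cultures of batch 2 in every panel. Footprint means include members below the count filter.

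Between genotypes, no member passed the test in total RNA. With batch in the model, 0 of 34 members were called in KO over WT by edgeR, 12 had an unadjusted p under 0.05 (4.68% of all genes), DESeq2 called 0, and 0.0183% of all genes were called. The sterol median was -0.40, with 17 of 17 members below 0, the fatty acid median was -0.28, with 11 of 11 below 0, and the regulator median was -0.07, with 4 of 6 below 0, against an all-gene median near 0. By branch, the 2 sterol members with the smallest p were Mvd at log2 -0.73 and Cyp51 at -0.46. In the fatty acid branch these were Acsl3 at -0.28 and Elovl6 at -0.43, and among regulators Insig1 at -0.36 and Insig2 at -0.10. The lowest adjusted p of any member was 0.859 by edgeR. Without WT 4 the medians were -0.12 for sterol, with 14 of 17 below 0, -0.04 for fatty acid, with 6 of 11, and 0.04 for regulators, with 3 of 6. Without batch 2 they were -0.13, -0.04 and 0.04.

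The genotype difference was taken within each batch. The sterol mean of KO minus that of WT was -0.15 in batch 3, -1.06 in batch 2 and -0.05 in batch 1, and the fatty acid mean gave -0.07, -1.05 and -0.15 in batches 3, 2 and 1. In batch 2 the sterol mean was 3.98, 4.75 and 3.92 in KO 2, KO 3 and KO 4, against 5.28 in WT 4. Every KO culture lay below WT 4 there, and that group has 1 WT culture. Members with KO below WT numbered 23 of 34 in batch 3 (49% of all genes), 32 of 34 in batch 2 (50.8%) and 21 of 34 in batch 1 (50.7%). A test of whether the genotype difference itself differed between batches called 1 member, Acss2 (adjusted p 0.0208 by edgeR), against 0.987% of all genes. Acss2 had 34.8 CPM in WT 4 alone, and since KO 1 and WT 4 are the sole cultures of their genotype in batches 1 and 2, culture and genotype within a batch cannot be told apart. In no member did all 6 KO cultures lie below, or all lie above, the 6 WT cultures, as was so in 0.0731% and 0.0548% of all genes.

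**Figure D4:**
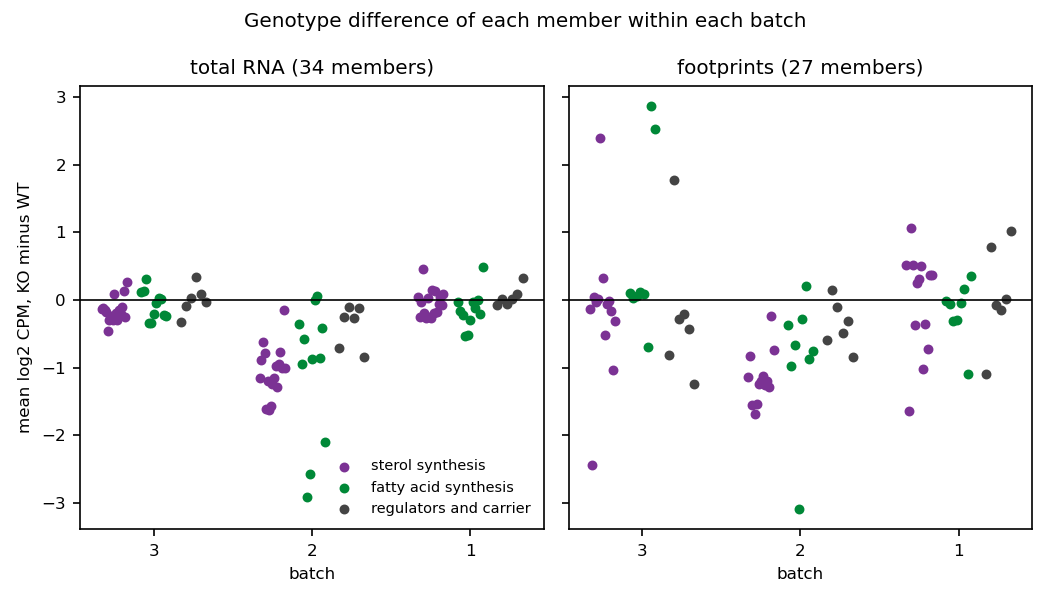
KO minus WT difference in mean log2 CPM for each member within each batch, coloured by branch, in total RNA (34 members) and in footprints of the 27 members that passed the count filter. In batch 2, where WT 4 is the sole WT culture, 32 of 34 members lie below 0 in total RNA, and in batches 3 and 1 the points lie on both sides of 0.

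Footprints were read for the 27 members that passed the count filter, 13 sterol, 8 fatty acid and 6 regulators. Acat2, Mvk, Tm7sf2, Hsd17b7, Scd1, Elovl6 and Acss2 did not pass and have no footprint test with all cultures. The filter does not look at batch, so a member low in batch 1 can pass through batches 2 and 3. Fads2, at 1.66 to 6.59 CPM in batch 1, passed in this way. The all-gene shares below rest on the same filter. In batch 3 over batch 1, 22 of the 27 were higher and none lower, against 9.54% of all genes higher and 11.2% lower (20.8% called). The counts were 12 of 13 sterol (median log2 2.70), 7 of 8 fatty acid (1.28) and 3 of 6 regulators (0.71), and Ebp, Acaca, Scap, Insig2 and Stard4 did not pass.

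Sqle footprints were 209.7, 130.2, 211 and 82.2 CPM in KO 5, KO 6, WT 5 and WT 6 of batch 3, against 11.6, 13.5, 3.3 and 14.7 CPM in KO 1, WT 1, WT 2 and WT 3 of batch 1 (log2 4.14, SE 0.35, adjusted p 6.65e-10 by edgeR). The groups did not overlap, although WT 6 rests on 3 counts and WT 2 on 1. Cyp51 footprints were 126, 249.5, 207 and 164 CPM in batch 3, against 11.6, 21.3, 26.4 and 28.3 CPM in batch 1 (log2 3.40, SE 0.33). Insig1 footprints were 74.6, 54.2, 117 and 109.5 CPM in batch 3, against 4.97, 8.3, 33 and 6.28 CPM in batch 1 (log2 3.47, SE 0.42). WT 2 was the highest batch 1 culture for Insig1, with 10 counts, and still lay below batch 3. Srebf2 footprints were 214, 239, 357 and 192 CPM in batch 3, against 74.6, 88.2, 72.5 and 89 CPM in batch 1 (log2 1.80, SE 0.20). Fads2 footprints were 112, 86.8, 122 and 0 CPM in batch 3, against 1.66, 5.19, 6.59 and 4.19 CPM in batch 1 (log2 4.75, SE 0.48). The 0 is WT 6, where 3 counts would be 101 CPM, and the 4 batch 1 values rest on 1, 10, 2 and 4 counts. Other sterol members had the same order of batches. Hmgcs1 footprints were 340.1, 228, 286 and 329 CPM in KO 5, KO 6, WT 5 and WT 6 of batch 3, against 59.7, 45.7, 23.1 and 64.9 CPM in KO 1, WT 1, WT 2 and WT 3 of batch 1 (log2 2.70). Fdps footprints were 312, 347, 389.6 and 274 CPM in batch 3, against 24.9, 30.1, 36.3 and 31.4 CPM in batch 1 (log2 3.80). Neither gene overlapped between these batches. Footprints of every batch 3 culture lay above every batch 1 culture in 17 of 27 members, against 8% of all genes. Among the enzymes that make and lengthen the chain, Fasn was at log2 1.34 (SE 0.20), Acly at 0.88 (SE 0.17) and Elovl5 at 1.25 (SE 0.24).

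In batch 2 over batch 1, 12 of the 27 had higher footprints and none lower, against 8% of all genes higher and 7.37% lower (15.4% called). These included Cyp51 at log2 2.24 (SE 0.28), Sqle at 2.10 (SE 0.32), Fads2 at 3.01 (SE 0.42), Acaca at 0.74 (SE 0.22), Srebf2 at 0.80 (SE 0.17) and Insig1 at 1.53 (SE 0.36). Without WT 4, those past the threshold numbered 5, namely Cyp51, Sqle, Fads2, Insig1 and Srebf2, against 8.72% of all genes, and without WT 1 there were 7, against 13% of all genes. In batch 3 over batch 2, 18 of the 27 were higher and none lower, against 10.9% higher and 11.7% lower (22.5% called), with Sqle at log2 2.05 (SE 0.27), Insig1 at 1.94 (SE 0.34), Elovl5 at 1.23 (SE 0.23) and Scap at 1.05 (SE 0.36). Both comparisons share cultures with the one of batches 3 and 1. As in total RNA, WT 4 was the highest culture of batch 2 for Cyp51, with 59.5, 75.8 and 37.5 CPM in KO 2, KO 3 and KO 4, against 134 CPM in WT 4. Sqle footprints were 30.7, 38.4 and 25.5 CPM in these KO cultures, against 73.5 CPM in WT 4. The mean log2 CPM of sterol footprints over all 17 members was 5.81 ± 0.37, 4.71 ± 0.67 and 3.72 ± 0.33 in batches 3, 2 and 1. Over all 11 fatty acid members it was 5.54 ± 0.77, 5.08 ± 0.53 and 4.43 ± 0.12 (SD, n = 4 each). These means include members below the count filter, and a count of 0 enters through the prior count of 2. The wide spread of the fatty acid mean in batch 3 came with WT 6, the shallowest library, at 4.50. That WT 6 mean was 3.75 with a prior count of 0.5 and 5.01 with 5.

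In footprints of KO over WT, 0 of 27 members were called by edgeR, against 0.0832% of all genes, while 16 had an unadjusted p under 0.05 (8.52% of all genes) and 26 lay below 0. DESeq2 also called 0. The medians were -0.85 for sterol, -0.48 for fatty acid and -0.33 for regulators. Nsdhl footprints were 8.29, 11.8, 16, 16.2, 55.9 and 54.2 CPM in KO 1 to KO 6, against 15.1, 16.5, 12.6, 37.6, 70.4 and 54.8 CPM in WT 1 to WT 6, with a log2 fold change of -1.08 (SE 0.24, adjusted p 0.053 by edgeR). The genotypes overlapped widely, and the batch 3 cultures of both were the highest. Cyp51 at -0.93 (SE 0.23) and Sc4mol at -0.76 (SE 0.19) each had an adjusted p of 0.109, Acaca was at -0.69, Scd2 at -2.15, Srebf2 at -0.42 and Insig1 at -0.74. Without WT 4 the medians were -0.18, -0.17 and -0.28, and without batch 2 they were -0.13, -0.17 and -0.39. Calls depended on single libraries. Without KO 1, 9 members were called lower (Acaca, Cyp51, Fdft1, Lss, Mvd, Nsdhl, Sc4mol, Sqle and Tm7sf2, against 3.45% of all genes). Tm7sf2 passed the count filter in that fit but not with all cultures. KO 1 is the sole KO culture of batch 1, so that fit compares genotypes within batches 2 and 3. Without KO 5, 2 were called lower (Nsdhl and Sc4mol, against 0.283%), and without KO 6, 1 was (Cyp51, against 0.103%). Nsdhl alone was called lower without WT 1, WT 5 or WT 6 (against 0.337%, 0.193% and 0.218%). Within batches, KO was below WT in 15 of 27 members in batch 3 (37% of all genes), 25 of 27 in batch 2 (50.7%) and 14 of 27 in batch 1 (48.4%).

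The difference between genotypes differed between batches for 1 member in footprints, Scd2 (adjusted p 0.00403 by edgeR), against 2.01% of all genes. Scd2 footprints were 74.6 and 239 CPM in KO 5 and KO 6, against 183 and 82.2 CPM in WT 5 and WT 6. In batch 2 they were 8.33, 18.1 and 9.24 CPM in KO 2, KO 3 and KO 4, against 107 CPM in WT 4. In batch 1 they were 11.6 CPM in KO 1, against 13, 9.89 and 24.1 CPM in WT 1, WT 2 and WT 3. The genotypes overlapped in batches 3 and 1 and lay apart in batch 2, through WT 4, and the value of WT 6 rests on 3 counts.

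The ratio of footprints to total RNA in a culture is a measure of ribosome load per transcript, on a relative scale, since each kind of library is scaled to its own total. The names of the count files state coding sequence for footprints and do not for total RNA, so the counted regions may differ. Among 7203 genes with both values, Dhcr7 was at percentile 98.8 of the median ratio, Fads2 at 96.3 and Nsdhl at 94.3. At the other end, Insig1 was at percentile 1.43, Insig2 at 5.35, Scap at 8.91 and Scd2 at 12.0. In the 4 cultures whose footprint libraries held at least 1000000 counts, the median log2 ratio of Dhcr7 was 1.00, against 1.71 over all cultures, at percentile 91.9, and that of Scap was -1.81, against -1.24, at percentile 2.80. The sterol members ran from percentile 38.3 to 98.8 with a median of 57.2, the fatty acid median was 51.9 and the regulator median 30.1.

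The genotypes were not separated by the ratio. Between KO and WT, 0 of 27 members were called by edgeR (0.0139% of all genes), every member had an adjusted p of 1, and DESeq2 called 0. Nsdhl was at log2 -0.82 (SE 0.27, unadjusted p 0.0047 by edgeR) and Srebf2 at -0.49 (unadjusted p 0.035 by edgeR). That fit does not pair the libraries of a culture. With culture as a block, Nsdhl was at -0.53 (unadjusted p 0.049 by edgeR) and Srebf2 at -0.43 (unadjusted p 0.0068 by edgeR). Both then had an adjusted p of 0.999 by edgeR, and their order by p was reversed. The branch medians were -0.40, -0.31 and -0.30 for sterol, fatty acid and regulators, and with culture as a block they were -0.01, -0.12 and -0.08.

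Across batches the number of members called by the ratio depended on the block. In batch 3 over batch 1, 0 of 27 were called (1.14% of all genes). In batch 2 over batch 1, 0 were called (16.7% of all genes), and with culture as a block 4 were, Cyp51 at 0.83 and Idi1 at 0.86 higher and Dhcr7 at -0.68 and Scd2 at -1.03 lower, against 31.7% of all genes. Without KO 4, WT 3 or WT 5 the unblocked count was 1, against 14.8%, 12.8% and 19% of all genes. In batch 3 over batch 2, 2 were called, Scap at log2 1.20 (SE 0.30, adjusted p 0.0168 by edgeR) and Dhcr7 at 1.37 (SE 0.42, adjusted p 0.0365 by edgeR), against 9.97% of all genes. With all cultures and no block, the share of members called was thus below that of all genes in each comparison. The same held for batch 2 over batch 1 with the block, so these calls do not set the members apart from other genes. The count was 0 without WT 5 (6.28% of all genes) and 1 without KO 5, WT 4 or WT 6 (3.84%, 5.64% and 9.56%). With culture as a block 10 were called, against 17.5% of all genes. Dhcr7 at 1.54, Scap at 1.31, Srebf2 at 0.74, Scd2 at 0.67, Fasn at 0.47 and Acly at 0.43 were higher, and Idi1 at -1.23, Fdft1 at -0.99, Cyp51 at -0.70 and Sc4mol at -0.54 were lower.

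The Dhcr7 ratio was 3.88, 5.74, 7.86 and 6.34 in KO 5, KO 6, WT 5 and WT 6 of batch 3, against 1.93, 2.44, 1.89 and 1.74 in KO 2, KO 3, KO 4 and WT 4 of batch 2. All 4 batch 3 values, which rest on 12, 11, 20 and 4 footprint counts, lay above batch 2. The batch 1 ratios of KO 1, WT 1, WT 2 and WT 3 were 3.28, 3.10, 1.78 and 3.31, between the other batches for 3 of the cultures. The Scap ratio was 0.445, 0.450, 1.09 and 0.382 in batch 3, on 6, 3, 13 and 1 footprint counts, against 0.228, 0.225, 0.260 and 0.275 in batch 2. WT 5 alone was far above the others, and the batch 1 values of 0.408, 0.400, 0.480 and 0.409 were near the rest of batch 3. The Idi1 ratio, which was lower under the block, was 0.929, 0.515, 0.793 and 0.415 in batch 3, against 1.42, 1.74, 1.25 and 2.09 in batch 2. Its batch 3 values rest on 23, 6, 28 and 2 footprint counts. The batch 1 ratios of KO 1, WT 1, WT 2 and WT 3 were 1.33, 1.13, 0.406 and 0.878 and overlapped batch 3.

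**Figure D5:**
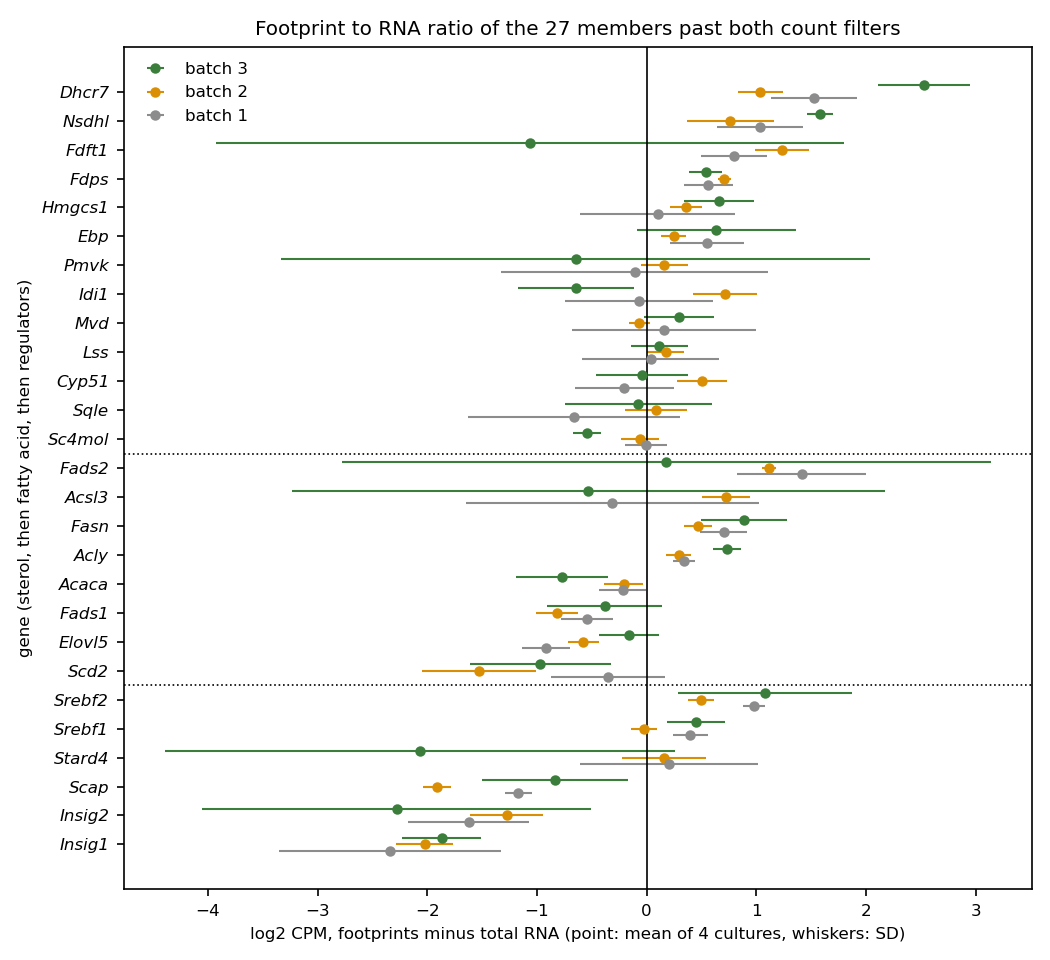
Log2 ratio of footprint CPM to total RNA CPM for the 27 members that passed the footprint filter, as the mean of each batch with its SD over 4 cultures (whiskers). Dhcr7, Fads2 and Nsdhl lie to the right and Insig1, Insig2 and Scap to the left, and whiskers are wide where a batch 3 footprint library has a count of 0.

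In the authors' deposited table of results for all genes, whose contrast is not stated, 0 of the 34 members had an adjusted p-value under 0.05, and the lowest among them was 1. That table lists 19437 genes with an adjusted p-value, of which 1 was under 0.05. No fold change is copied from it.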

How the data were processed

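Total RNA and ribosome footprints (RPF) of 12 cultures were measured with the TruSeq Ribo Profile kit, per the labels' protocols. The authors deposited 1 file per library of raw read counts per gene; Trim Galore, Bowtie 1.1.2, TopHat2 2.1.0, HTSeq and build mm10 are named in the submitters' processing notes, and the strand of counting is not given in the sources used here. Rows that name no gene were left out: reads in no feature came to 4.32 to 19.2% of counts in total RNA and 3.97 to 9.47% in footprints, and reads placed in several places to 27.8 to 51.2% and 45.6 to 80.1%. The authors also deposited a table of results for all genes, with no stated contrast, and it was used only for its adjusted p-values.

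Counts were analysed with edgeR 4.0.16 in R 4.3.3 (TMM scaling, genes kept by filterByExpr at 10 counts, quasi-likelihood F test with robust dispersion), separately for total RNA and footprints, with genotype and batch as terms. The footprint to RNA ratio was the interaction of library kind with genotype or batch over 24 libraries. The title gives footprints and total RNA of a culture the same number, and their deviations from group means correlated at 0.219 to 0.558 over 12 cultures, so culture was used as a block in an alternative. P-values were adjusted by Benjamini-Hochberg over all genes tested, with a threshold of 0.05. Log2 CPM used a prior count of 2. SE is the size of the log2 fold change divided by the square root of F. The fits were tested on simulated data with 200 genes changed 2-fold. In footprints, 78.5% were recovered for KO over WT with 19 false calls, and 46% for batch 3 over batch 1 with 7. In total RNA these shares were 90.5% and 86%, with 8 false calls each. Among the simulated footprint calls, the false share lay above the threshold of 0.05 in both comparisons. The simulation had no batch difference besides the changed genes, which were raised in batch 3, and no outlying culture such as WT 4. It therefore does not cover those features of the data. Intervals and limits from counts cover counting error only. Alternatives were DESeq2 1.42.0, no count filter, other groupings of the filter, blocks, shallow libraries left out and each culture left out. A filter by batch and genotype and the omission of a whole batch were added after seeing the data. Members and lists were chosen with earlier results of these data known. Named members were those called, or where more than 8 were called the 4 of each branch with the smallest p; where none was called, the 2 of each branch with the smallest p. Beyond that rule, members were named so that each is accounted for. A few genes of the related and marker lists are not reported here by name. Promoter windows were taken from RefSeq, build GRCm38.p6, and figures were drawn with matplotlib 3.10.9.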

Additional observations from a re-analysis of the deposited data

Results flagged for a closer look

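In 8 of 114 groups of 4 cultures (34 members in total RNA by 3 batches, and the branch means), 1 culture lay far from the others, where chance gives about 1 in 20. In batch 3, WT 5 was high for Mvk (log2 CPM 5.14) and Fdps (8.24). In batch 2, WT 4 was high for Srebf1 (6.76) and Acsl3 (4.76). In batch 1, KO 1 was low for Hmgcs1 (5.25) and Acaca (5.33), WT 1 was high for Ebp (5.31) and WT 2 was high for Acly (7.58).

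The KO and WT difference itself differed between batches for Acss2 in total RNA (adjusted p 0.0208 by edgeR) and for Scd2 in footprints (adjusted p 0.00403 by edgeR). WT 4, the sole WT culture of batch 2, was the highest culture of that batch for both. By design, the genotype difference rests on 1 KO culture in batch 1, KO 1, and on 1 WT culture in batch 2, WT 4. The test was not repeated with single cultures left out.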

How the results depend on the processing

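When each culture was left out in turn, 31 to 32 members were called in batch 3 over batch 1 in total RNA and 17 to 23 in footprints. With all cultures kept, 45.3% and 20.8% of all genes were called there. Leaving out each culture gave 10 to 29 in total RNA and 5 to 15 in footprints for batch 2 over batch 1. The lowest, 10 and 5, were without WT 4, with 12.2% and 8.72% of all genes called. With all cultures kept, 23.5% and 15.4% were called. For batch 3 over batch 2 the ranges were 22 to 29 and 14 to 18, against 49.2% and 22.5% of all genes with all cultures. For KO over WT they were 0 to 0 and 0 to 9. The 9 were without KO 1, with 3.45% of all genes called, against 0.0832% with all cultures. For the ratio these ranges were 0 to 0 for KO over WT, 0 to 1 for batch 2 over 1, 0 to 0 for batch 3 over 1 and 0 to 2 for batch 3 over 2. With all cultures kept, the ratio called 0.0139%, 16.7%, 1.14% and 9.97% of all genes in that order. KO over WT footprints gave 9 called with no count filter (1.26% of all genes), 1 with the filter by batch and genotype (0.326%), 3 without batch 3 (0.222%) and 24 of 33 without footprint libraries under 1000000 counts, against 14.5% of all genes; that last setting leaves KO 2, KO 4, WT 1 and WT 4, so its genotype term compares KO 2 and KO 4 with WT 4. Batch 2 over batch 1 footprints gave 20 with no filter (11.4%) and 25 without those shallow libraries (19.9%). The genotype by batch count was 4 with no filter (1.8%) and 2 with the filter by batch and genotype (2.08%) in footprints, and 3 by DESeq2 (3.38%) and 15 with no filter (4.34%) in total RNA. The ratio of batch 2 over 1 gave 1 by DESeq2 (21.1%), 1 without batch 3 (17.2%), 1 without shallow libraries (9.28%) and 4 with culture as a replicate block (31.7%), and that of batch 3 over 2 gave 1 with no filter (5.15%) and 10 with the culture block (17.5%). KO and WT of one number correlated at 0.0741 to 0.868 in total RNA and 0.0733 to 0.328 in footprints, and numbers 2 and 3 join KO cultures of batch 2 to WT cultures of batch 1, so the number does not mark a shared batch and was not taken to pair them. A replicate block on the number gave 1 member in total RNA (0.932% of all genes) and 2 in footprints (0.971%) for batch 2 over 1, and 0 for KO over WT in both. Neither block moved another of its counts of calls by over 1.5 times. With the median over members, the fatty acid difference of batch 3 minus batch 1 in total RNA was 1.41, against 1.64 for the mean. Without shallow libraries the KO over WT ratio reversed for Pmvk (0.073, against -0.63) and Acaca (0.083, against -0.43). Over 109 results of named members, 1729 of 1807 alternatives kept direction and side of the threshold, 33 newly passed, 43 no longer passed and 2 reversed. The cause of each change was not tested. Depth limits footprints of batch 3 most.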
